A study of Homo sapiens with 2 samples.

Results

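The 10 hairpins described here make up the upstream part of the imprinted miR domain between DLK1 and DIO3 on chromosome 14, and they were compared between the K562/ADM and the K562 library. They are miR-770, miR-493, miR-337, miR-665, miR-431, miR-433, miR-127, miR-432, miR-136 and miR-370. Every name of the deposited table was reduced to its hairpin by dropping the species prefix, the asterisk, the arm and any copy number, and all names of these hairpins were kept. This gave 19 of the 934 names, of which 11 belong to the 5 hairpins antisense to RTL1 and 8 to the 5 others. K562 is a human chronic myelogenous leukemia cell line. K562/ADM is a resistant line that was derived from it by rising exposure to adriamycin, an anthracycline drug, and was then kept in 1000 ng/mL of that drug. For making and keeping the K562/ADM line no drug other than adriamycin is named. No source used here says whether K562/ADM is a single clone, and its genome was not analysed here. There was 1 small RNA library for each line, with 6895193 reads assigned to miRs in K562/ADM and 7677738 in K562, so that acquired resistance, the drug in the medium and the library itself cannot be told apart.

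MiRs are short RNAs cut from hairpin precursors, and they repress mRNAs that pair with their seed, the bases near the 5' end. In the DLK1-DIO3 domain the miRs are made from long non-coding RNAs of the maternal chromosome, such as MEG3, while the protein-coding genes DLK1, RTL1 and DIO3 are expressed from the paternal chromosome. RTL1 derives from a retrotransposon and in the mouse is needed in the placenta. Also in the mouse, miR-127, miR-136 and other miRs of the antisense transcript pair perfectly with the Rtl1 mRNA and direct its cleavage.

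The hairpins span 58.8 kb on the plus strand of chromosome 14 (GRCh37), all within the host transcript gene MIR493HG. The first, MIR770 (chr14:101318727-101318824), overlaps an exon of a MEG3 transcript. MIR493 (chr14:101335397-101335485), MIR337 (chr14:101340830-101340922) and MIR665 (chr14:101341370-101341441) lie in introns of MIR493HG. The next 5 stand within 3.78 kb, opposite the coding exon of RTL1 (coding sequence chr14:101347052-101351125, minus strand). They are MIR431 (chr14:101347344-101347457), MIR433 (chr14:101348220-101348343), MIR127 (chr14:101349316-101349412), MIR432 (chr14:101350820-101350913) and MIR136 (chr14:101351034-101351125), and MIR127 also overlaps an exon of a MIR493HG transcript. MIR370 (chr14:101377476-101377550) stands 26.4 kb further on, in an intron of MEG8, and ends 110.8 kb before MIR379, the first hairpin of the 14q32.31 cluster.

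The mature sequences of the names were taken from a reference and not from the reads. Of the 19 names, 16 were matched to a mature sequence of RefSeq (GRCh38.p14), and each of the 16 was found unchanged at its hairpin on GRCh37. The arm of a name without suffix was taken from miRBase naming and not from the file. The 3 names spelled mir with an asterisk (mir-370\*, mir-432\* and mir-433\*) were given no arm, since mir-432\* stands beside miR-432\* and no source used here says what the spelling marks. The arm with more reads in K562 is shown for each hairpin with an assigned arm, and both arms for miR-127. Capitals mark the seed, bases 2 to 8 counted from the 5' end.
miR-770-5p: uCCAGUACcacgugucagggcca
miR-493: uGAAGGUCuacugugugccagg
miR-337-3p: cUCCUAUAugaugccuuucuuc
miR-665: aCCAGGAGgcugaggccccu
miR-431: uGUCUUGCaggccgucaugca
miR-433: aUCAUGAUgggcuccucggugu
miR-127-3p: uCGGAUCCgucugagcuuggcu
miR-127-5p: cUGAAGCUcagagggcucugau
miR-432: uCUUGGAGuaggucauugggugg
miR-136: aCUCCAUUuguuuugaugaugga
miR-370: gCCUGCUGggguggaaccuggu

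The 16 sequences carry 16 different seeds, so that no pair of these miRs shares one. For miR-770-5p the RefSeq table holds 1 other mature miR with the same seed, and it holds 0 for miR-127-3p and for each of the other 14. The 9 assigned arms of the RTL1-antisense hairpins were each complementary over their full length to the coding sequence of RTL1, and none of the arms of the other hairpins was. This follows from transcription of the same bases from opposite strands, and it does not show that RTL1 is regulated in these cells. The sites of miR-127-3p and miR-136, the most abundant names of the group in both libraries, are shown, as the RTL1 mRNA reads from 5' to 3', with the bases complementary to the miR in capitals. The site of miR-127-3p covers bases 1733 to 1754 of the 4074 bases of the coding sequence (with flanks chr14:101349369-101349396), and that of miR-136 bases 51 to 73 (with flanks chr14:101351050-101351078).
RTL1 site of miR-127-3p: accAGCCAAGCTCAGACGGATCCGAtga
RTL1 site of miR-136: gaaTCCATCATCAAAACAAATGGAGTcct

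Each of the 10 hairpins had fewer reads in K562/ADM. Their names together had 1988 reads in K562/ADM and 115019 in K562, or 288 and 14981 RPM (reads divided by the total of miR reads of the library in units of 1000000). That is 0.0288% of the K562/ADM library (exact 95% interval 0.0276 to 0.0301) and 1.498% of the K562 library (1.49 to 1.51). After scaling by the median of ratios, the level left in K562/ADM was 2.12% of that in K562 (2.02 to 2.21), which is 47.2-fold lower (45.2 to 49.4). These Clopper-Pearson intervals cover counting error only, and reads made by PCR are not independent molecules. With 1 library per line there is no replicate check and no test across conditions. In RNA from whole cultures, fewer cells that make a miR and less of it per cell cannot be told apart.

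A name was called lower or higher when its ratio of K562/ADM to K562 was at least 2-fold and its counting interval excluded 1. By this rule 18 of the 19 names were called lower in K562/ADM, where 15.6% of all 934 names were. None was called higher (0 of 19), where 11.1% of all names were. The name not called was mir-433\*, with 0 reads in K562/ADM and 1 in K562. Of the 19 names, 12 had reads in both libraries and were between 15.6-fold (miR-665) and 157-fold (mir-370\*) lower, the second from 1 read in K562/ADM. The other 7 had 0 reads in K562/ADM, which allows up to 3 reads or 0.435 RPM. For 12 of the 19 names the whole interval lay beyond a 10-fold fall, as it did for 5.35% of all names. The median log2 ratio over the 18 names with at least 10 reads was -4.64, with names at 0 set at 3 reads, against -0.08 over the 604 names of the table with as many reads. Of these 18 names, 10 had under 10 reads in K562/ADM and passed through their reads in K562, so that their median is only a description.

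**Figure D1:**
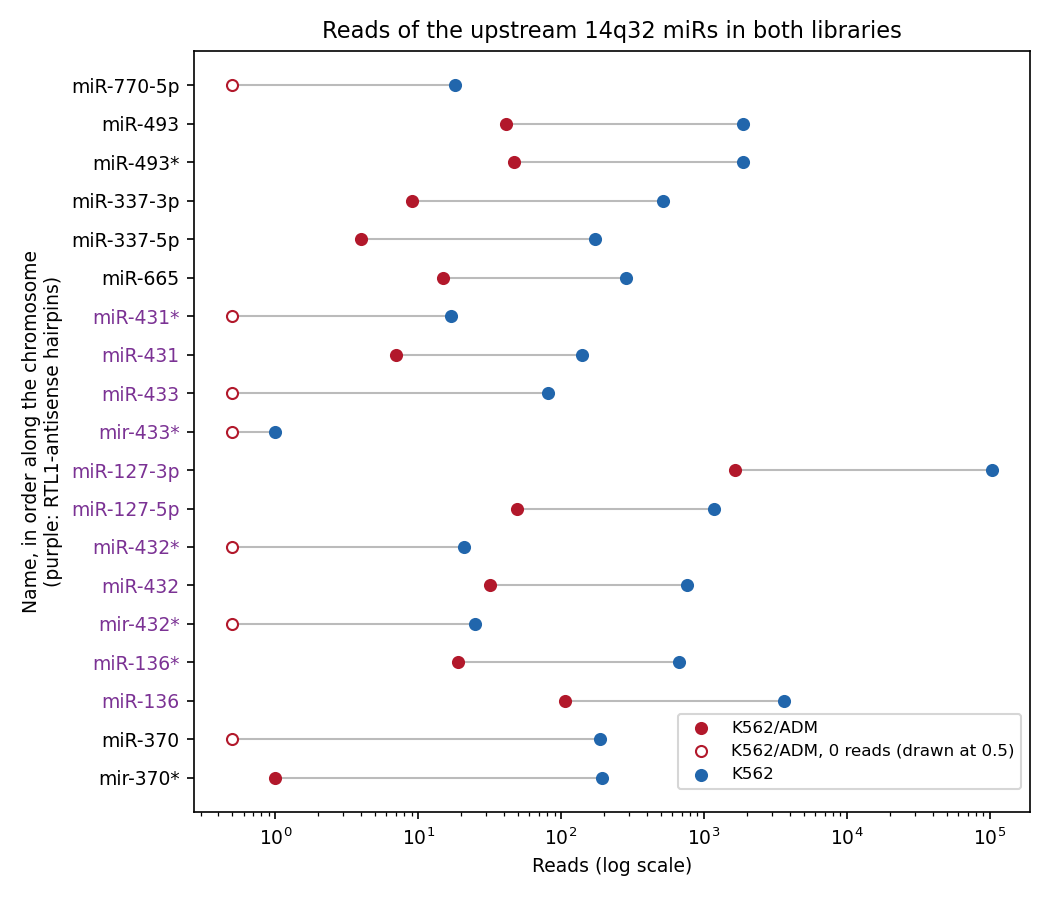
Reads of each of the 19 names (rows, in order of the hairpins along the chromosome, names of RTL1-antisense hairpins in purple) in K562/ADM (red) and K562 (blue), on a log scale. Open circles mark 0 reads, drawn at 0.5; in every row the K562/ADM point lies to the left, and miR-127-3p, with 1658 reads in K562/ADM and 103346 in K562, stands above the others in both libraries.

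MiR-127 held most of the reads. Its 3p arm, reported in human cells to repress BCL6, had 1658 reads in K562/ADM and 103346 in K562, or 240 and 13461 RPM. Among all 934 names it ranked 92nd in K562/ADM and 12th in K562. It was 50.9-fold lower (48.5 to 53.5). The 5p arm had 49 reads in K562/ADM and 1181 in K562, and was 19.7-fold lower (14.8 to 26.8). Of the reads of the 10 hairpins, miR-127 took 85.9% in K562/ADM (84.3 to 87.4) and 90.9% in K562 (90.7 to 91.0), so that a sum over the hairpins is mainly a measure of miR-127-3p.

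The other RTL1-antisense hairpins kept a larger part of their K562 level than miR-127, where they had reads. MiR-136 had 106 reads in K562/ADM and 3647 in K562, 28.1-fold lower (23.2 to 34.4), and miR-136\* had 2.76 RPM in K562/ADM and 86.6 RPM in K562, 28.6-fold lower (18.2 to 47.8). MiR-432 had 32 reads in K562/ADM and 761 in K562, 19.4-fold lower (13.6 to 28.6). MiR-431, which in the mouse represses Pax7 in muscle stem cells, had 7 reads in K562/ADM and 141 in K562, 16.4-fold lower (7.78 to 41.7). MiR-433 had 0 reads in K562/ADM and 81 in K562, at least 22.0-fold lower against a floor of 3 reads in K562/ADM. The minor names miR-431\*, miR-432\* and mir-432\* had 0 reads in K562/ADM and 17, 21 and 25 in K562. Against the same floor they were at least 4.63-fold, 5.72-fold and 6.80-fold lower. The exact 95% intervals are wider than this floor and reached to 17.5-fold for miR-433, 3.37-fold for miR-431\*, 4.25-fold for miR-432\* and 5.14-fold for mir-432\*.

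Among the 5 hairpins outside RTL1, miR-493, which represses IGF1R in colon cancer cells, was the most abundant. MiR-493 had 41 reads in K562/ADM and 1879 in K562, 37.4-fold lower (27.5 to 52.3). MiR-493\* had 47 reads in K562/ADM and 1878 in K562, 32.6-fold lower (24.4 to 44.6). Both arms of this hairpin thus stood at nearly equal reads in either library. MiR-337-3p had 9 reads in K562/ADM and 519 in K562, 47.1-fold lower (24.6 to 104), and miR-337-5p had 4 and 174, 35.5-fold lower (13.6 to 132). MiR-665 had 15 reads in K562/ADM and 286 in K562, 15.6-fold lower (9.28 to 28.2), and its hairpin starts 0.45 kb after the end of that of miR-337. The intervals of miR-665 and of miR-337-3p overlap.

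The hairpins at both ends of the group, like miR-433 within it, were at or close to 0 reads in K562/ADM, from unequal depth. No pattern along the chromosome is read from this. MiR-370, which represses CPT1A, an enzyme of fatty acid oxidation, had 0 reads in K562/ADM and 187 in K562, at least 50.9-fold lower against the floor of 3 reads, with an exact interval that reached to 41.0-fold. The name mir-370\* had 1 read in K562/ADM and 192 in K562, 157-fold lower (27.8 to 6225). Both names of miR-370 together kept 0.323% of their K562 level (0.00816 to 1.81), and the upper limit lies under the interval of miR-127, 1.91% to 2.10%. Neither name did so alone, with upper limits of 2.44% for miR-370 and 3.60% for mir-370\*. The difference thus depends on adding a name whose spelling no source used here explains. MiR-770-5p had 0 reads in K562/ADM and 18 in K562, at least 4.90-fold lower against the same floor. Its exact interval reached to 3.59-fold, or 27.9% of the level in K562, the weakest limit of a whole hairpin in the group.

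The falls of the hairpins were compared with each other as ratios of ratios, which do not depend on how the libraries are scaled. For 12 of the 45 pairs of hairpins the intervals of the level left did not overlap, and each of these pairs included miR-127, miR-370 or miR-493. The pairs with miR-370 rest on both of its names added together. The name miR-370 alone, with an upper limit of 2.44%, overlaps miR-127, miR-431 and miR-493, with lower limits of 1.91%, 2.15% and 2.29%. Relative to miR-127, the ratio was 3.21 times as high for miR-665 (1.77 to 5.40), 2.71 for miR-431 (1.07 to 5.73) and 2.43 for miR-432 (1.64 to 3.47). It was 1.78 for miR-136 (1.46 to 2.14) and 1.43 for miR-493 (1.14 to 1.78), and 0.162 for miR-370 (0.00408 to 0.907). For miR-337 it was 1.15 (0.607 to 1.98), so that a difference from miR-127 was not detectable at this depth, and for miR-433 and miR-770, both at 0 reads, the limits were 2.82 and 13.9. Neither the intervals of these 9 comparisons nor those behind the 45 pairs were adjusted for their number. Ordered by the level left, from miR-127 over miR-337, miR-493, miR-136, miR-432 and miR-431 to miR-665, no neighbours differed beyond counting error. MiR-370 stood below miR-127 with both of its names added together.

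**Figure D2:**
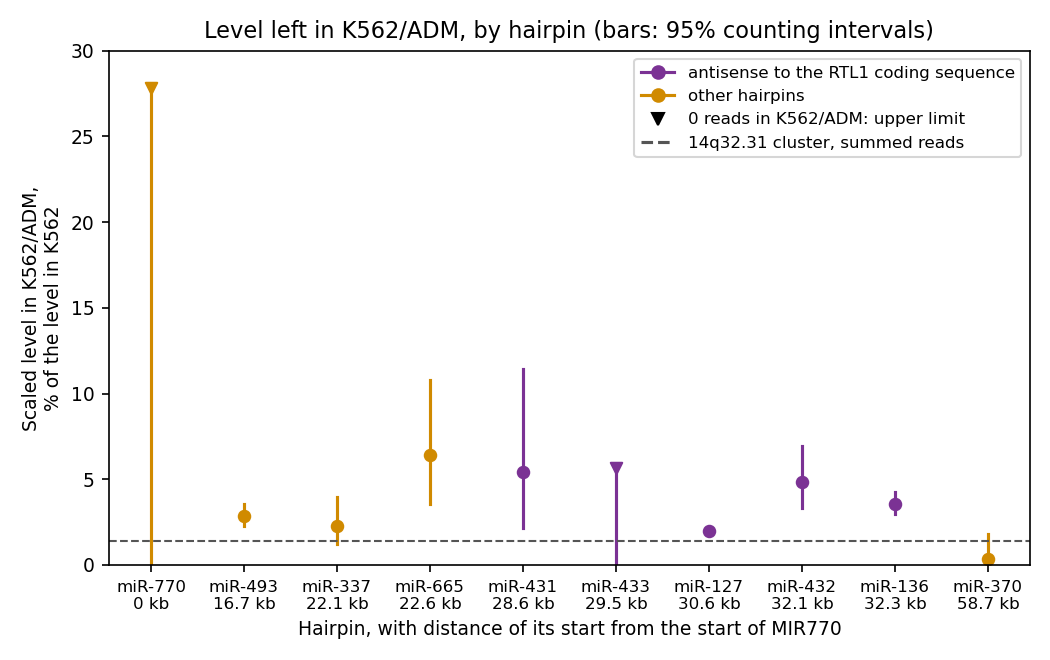
Level of each hairpin in K562/ADM as a percentage of its level in K562 after scaling (y axis), for the hairpins in chromosomal order with the distance of each start from that of MIR770 (x axis). Bars are exact 95% counting intervals and triangles are upper limits at 0 reads, 5.63% for miR-433 and 27.9% for miR-770. Where there were reads in K562/ADM, the RTL1-antisense hairpins (purple) run from miR-127, with an interval of 1.91% to 2.10%, to miR-431 at 5.43%. The others (orange) with reads there run from 0.323% for miR-370 to 6.42% for miR-665, and the dashed line is the 14q32.31 cluster at 1.39%.

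The RTL1-antisense hairpins and the others overlapped in the level they kept. The RTL1-antisense hairpins had 1871 reads in K562/ADM and 109886 in K562 and kept 2.09% of their K562 level (1.99 to 2.18), with 10 of 11 names called lower. The others had 117 reads in K562/ADM and 5133 in K562 and kept 2.79% (2.30 to 3.35), with 8 of 8 names called lower. Over all 934 names the share called lower was 15.6%. The ratio of ratios was 0.747 (0.618 to 0.910), a somewhat deeper fall of the RTL1-antisense reads. Without miR-127 the direction turned. The remaining 4 RTL1-antisense hairpins had 164 reads in K562/ADM and 5359 in K562 and kept 3.75% (3.19 to 4.38), and the ratio of ratios was 1.34 (1.05 to 1.72). With miR-370 left out as well it was 1.25 (0.979 to 1.61), with an interval that holds 1. Without miR-493, which holds most reads of the others, it was 0.808 (0.558 to 1.21), and without miR-665 0.809 (0.661 to 0.9996). The ratio of ratios stayed below 1 when each of the other 9 hairpins was left out in turn, so that among the 10 hairpins miR-127 alone turned it.

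The level left in the upstream hairpins was set against the downstream 14q32.31 cluster from miR-379 to miR-656. The 73 names of the cluster had 2538 reads in K562/ADM and 223205 in K562 and kept 1.39% of their K562 level (1.34 to 1.45). Among them 61 were called lower, 0 higher and 12 neither, where 15.6% of all 934 names were called lower. The upstream hairpins kept 1.52 times as much as the cluster (1.43 to 1.61). Without miR-381, the most abundant name of the cluster, the ratio was 0.986 (0.918 to 1.06), so that the difference of the summed reads from the whole cluster was no longer seen. By medians of names with at least 10 reads, miR-381 included, it was 1.68. These medians depend on the floor of 3 reads and on names that passed through their reads in K562, so they support no direction. Without miR-127 the ratio of the summed reads was 2.36 (2.07 to 2.67), in the same direction as with miR-127. Against the nearest block, miR-379 to miR-329, which holds no miR-381, the upstream hairpins kept 1.40 times as much (1.26 to 1.57). Against the distal end, miR-154 to miR-656, the ratio was 1.68 (1.16 to 2.52), from 29 reads of that end in K562/ADM and 2817 in K562. All of these ratios compare 1 library of each line and cover counting error only.

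**Figure D3:**
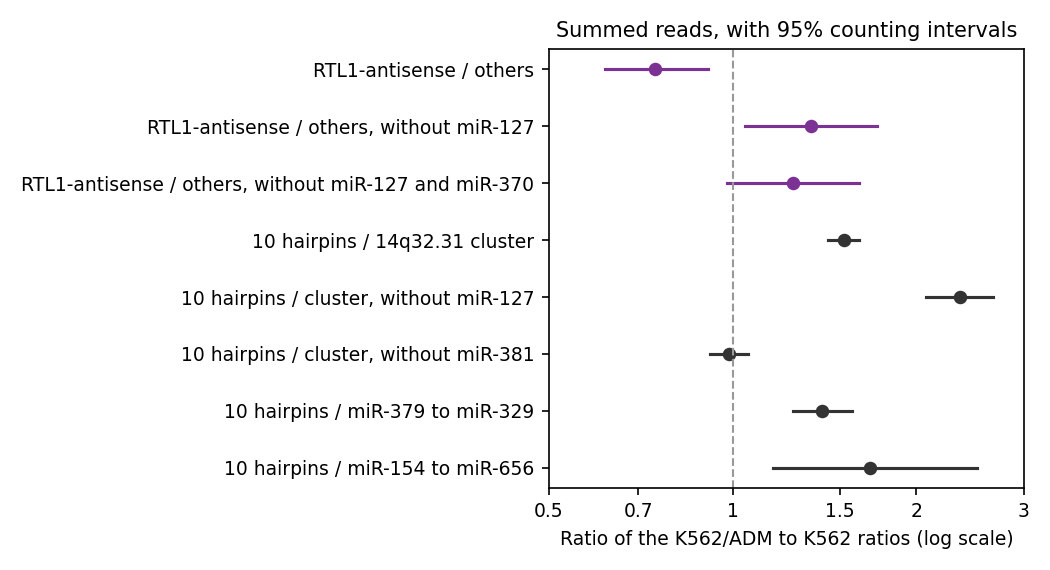
Ratio of the K562/ADM to K562 ratios of summed reads between groups of hairpins (x axis, log scale), with 95% counting intervals and the dashed line at 1. The contrast of RTL1-antisense hairpins with the others (purple) lies at 0.747 with miR-127 and at 1.34 without it, and the contrast of the 10 hairpins with the 14q32.31 cluster (black) lies at 1.52 and at 0.986 without miR-381.

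Both arms of a hairpin come from 1 precursor, so their share of the reads can be compared without any scaling. For 6 of the hairpins both arms were listed. In miR-127 the 5p arm took 2.87% of the reads in K562/ADM (2.13 to 3.78) and 1.13% in K562 (1.07 to 1.20), an odds ratio of 2.59 (1.89 to 3.46). In the other 5 hairpins the interval of the odds ratio held 1. The 5p arm of miR-493 took 53.4% in K562/ADM (42.5 to 64.1) and 49.99% in K562 (48.4 to 51.6). The 3p arm of miR-136 took 15.2% in K562/ADM (9.41 to 22.7) and 15.4% in K562 (14.4 to 16.5), with an odds ratio of 0.983 (0.565 to 1.63). The odds ratio was 1.33 for miR-337 (0.294 to 4.82), and the upper limits were 6.30 for miR-431 and 4.82 for miR-432, whose minor arms had 0 reads in K562/ADM, so that a shift like that of miR-127 was not detectable there.

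The unequal fall of both arms of miR-127 was then set beside hairpins elsewhere. The log2 ratio of its 5p arm was 1.37 above that of its 3p arm. In 88 hairpins outside the domain, with at least 20 reads of both arms in K562 and reads in K562/ADM, the same difference (arm with fewer reads minus the other) ran from -3.88 to 1.35, with a median of -0.19 and a median size of 0.47. In 0 of the 88 it was at or above that of miR-127, while in 9 it was at least as large in size in either direction. MiR-127 was picked for its shift, so its place among the 88 is only a description.

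**Figure D4:**
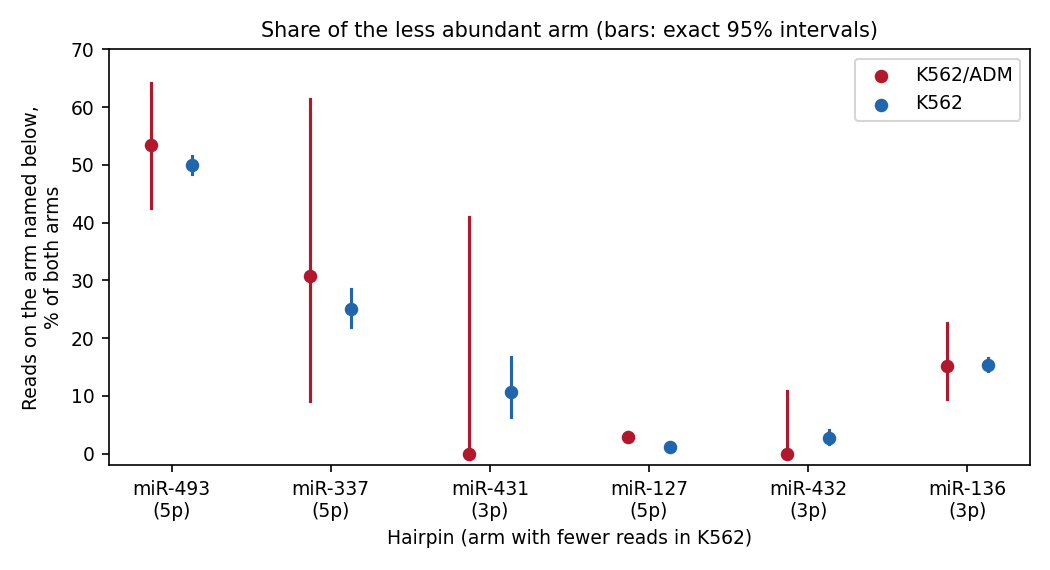
Share of the reads of a hairpin (y axis, percent of both arms) on the arm with fewer reads in K562, for the 6 hairpins with both arms listed (x axis), in K562/ADM (red) and K562 (blue) with exact 95% intervals. In miR-127 the intervals lie apart, at 2.87% in K562/ADM and 1.13% in K562, and in the other hairpins they overlap.

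Markers of blood cells were checked in both libraries. The 11 names of miR-142, miR-223, miR-144, miR-451 and miR-486 held 593865 reads in K562/ADM and 463897 in K562, with 0 called lower or higher. Of all 934 names 15.6% were called lower and 11.1% higher, and lists of 11 names are small against these shares. The 11 names of miRs typical of liver, muscle, neural and epithelial cells held 21162 reads in K562/ADM and 10791 in K562. Of these, 2 were called higher, miR-9 with 17882 reads in K562/ADM and 7976 in K562 and miR-1 with 22 and 10, while miR-133a and miR-206 had 1 read in K562/ADM and 0 in K562 each. Their part in the values of the 14q32 hairpins was not tested.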

How the data were processed

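The authors sequenced 1 small RNA library of each line. They collapsed identical reads, omitted sequences found a single time and aligned the others to miRBase 16 in miRanalyzer, which runs Bowtie. CASAVA 1.7.0, DESeq and hg18 are named in the submitters' processing notes. The deposited signal is the read count of a name divided by the DESeq size factor of its library. The file also holds 4 columns of the authors' own comparison (fold changes and p-values), which were not used. Each column is made of whole multiples of its lowest nonzero value, taken as 1 read. All values (100%) came out whole within 0.001 of their value. The values of 1 read in both libraries multiply to 1, as for size factors of 2 libraries. By this unit 124 names had a single read in K562/ADM and 100 in K562, which does not match the stated omission of sequences found once. The difference was not resolved, and it bears on names with few reads. The totals were 6895193 reads in K562/ADM and 7677738 in K562.

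The libraries were scaled by median-of-ratios size factors computed from these reads. Ratios have exact (Clopper-Pearson) 95% intervals, and ratios of ratios exact conditional intervals. No replicated count model could be fitted, since 1 library per line leaves no residual degrees of freedom. Names at 0 reads were bounded at 3 reads. The text names every member name and the 4 other names with reads in K562/ADM and at least 100 in K562 whose log2 ratio was nearest to the median of the members. The members and lists were chosen with earlier results of these data known. Alternatives were other scalings, read minimums, call rules, arms, and leaving out hairpins. The intervals and calls were tested on simulated independent Poisson counts, the model that the intervals assume. That simulation covers neither reads made by PCR nor spread between libraries. Positions are from GENCODE on GRCh37, since the file holds none, and sequences from RefSeq. The tools were edgeR 4.0.16 on R 4.3.3, for TMM and upper-quartile scaling, and scipy 1.17.1, numpy 2.4.6, pandas 2.3.3 and matplotlib 3.10.9 on Python 3.11.15.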

Additional observations from a re-analysis of the deposited data

How the results depend on the processing

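The count of 18 lower and 0 higher names was the same under each of the 5 other scalings, although upper-quartile scaling raised every log2 ratio by 0.74. Under these scalings 10.2% (upper quartile) to 17.7% (total counts) of all names were lower and 9.96% (total counts) to 23.9% (upper quartile) higher. It was 14 of 14 names with at least 50 reads (24.2% of all such names) and 19 by fold alone (29.4% of all names), and with 1 name per hairpin 10 of 10 were lower (13.7% of all). The summed ratio was 0.0212, against 0.0192 under total counts, 0.0354 under the upper quartile, 0.0197 without 14q32 in the size factors and 0.0195 by miR-425. It was 0.0328 without miR-127 and 0.0351 without miR-127 and miR-493. The RTL1-antisense contrast turned from 0.747 to 1.34 without miR-127, 1.25 without miR-127 and miR-370, 1.86 by medians of names with at least 10 reads and 1.59 by medians of names with at least 100 reads in K562. The minimum of 100 reads was set in the library where the members are high, so this median supports no direction. The medians of names with at least 10 reads, also those against the cluster and its first block, depend on the floor of 3 reads. This floor pulls names at 0 reads toward a smaller fall, so these medians support no direction. The 10 hairpins against the cluster gave 1.52, 2.36 without miR-127, 1.68 by medians and 0.986 without miR-381. Against the first block they gave 1.40, 2.17 without miR-127 and 2.28 by medians. Against the distal end they gave 1.68 and 2.60 without miR-127. The contrast without miR-370 and miR-127 together, those without miR-431, miR-433, miR-432, miR-136, miR-337 or miR-665, and the medians of names with at least 100 reads were chosen after seeing the data. No paired analysis was possible because there is 1 library per line, and for the same reason no replicate could be left out. Arm shares do not depend on scaling, and no alternative was listed for them. The 7 names at 0 reads in K562/ADM are limited by depth.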

Other observations

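The 4 names outside the group nearest to the median ratio of the upstream hairpins came from the downstream cluster. Among 286 names with reads in K562/ADM and at least 100 in K562, the 4 nearest to the median log2 ratio of the members, -4.64, were miR-134 (-4.68), miR-382 (-4.57), miR-758 (-4.80) and miR-329 (-4.95). MiR-134, known for its role in dendrites of neurons, had 464 reads in K562/ADM and 14608 in K562. MiR-382 had 25 and 725, miR-758 had 34 and 1163, and miR-329 had 27 and 1020. This likeness rests on 1 ratio between 2 libraries. The minimum of 100 reads was set in the library where the members are high, and the median depends on the floor of 3 reads. The list of nearest names is therefore only a description.

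Chromosome 14 outside the imprinted hairpins kept more of its reads than the members did. The 14 names of 10 listed hairpins, among them miR-345 and miR-342, had 1973 reads in K562/ADM and 3724 in K562, or 64.9% of the K562 level (61.4 to 68.5), with 4 called lower and 0 higher. Over all 934 names 15.6% were called lower and 11.1% higher. On the same scale the reads of all names together stood at 110%. The median log2 ratio of names with at least 10 reads was -0.38 here and -0.08 over the table, so these names were also lower than the table. MiR-127-3p was still counted 1658 times in K562/ADM, nearly as often as these 14 names together.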
